A study of Homo sapiens with 8 samples.

Results

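The translation initiation factor genes described here are the 55 rows of a gene table of 13471 genes whose symbol starts with EIF and a digit from 1 to 6. The rule uses the name alone, so beside the subunits of eIF1 to eIF6 the set holds the kinases of eIF2 alpha, the 4E-binding proteins, the eIF5A genes, the pseudogene EIF3IP1 and the antisense gene EIF3J-AS1. Their RNA was measured by RNA sequencing after immunoprecipitation (IP) of hnRNP U, a nuclear protein that binds RNA and chromatin, and without IP. The cells were hTERT-RPE1, a line of human retinal pigment epithelium made immortal with telomerase. All 4 groups were exposed to thymidine, which stalls DNA replication, at 2 mM for 24 h. For the 2 interphase groups nothing more was done, so interphase here means thymidine-arrested cells. The 2 mitotic groups were then released for 6 h and arrested overnight with STLC, which blocks the spindle motor Eg5. Within each state, one group of 2 libraries had no IP and the other had an IP with the antibody 3G6 against hnRNP U. Cells were lysed and the lysates cleared, and the labels do not say if RNA without IP was taken from those lysates. No control-antibody precipitate was part of the analysis, so binding to hnRNP U and carry-over cannot be told apart.

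Initiation is the step at which a ribosome is placed on the start codon of an mRNA. The small ribosomal subunit, loaded with the initiator tRNA by eIF2 and held in an open state by eIF1, eIF1A and eIF3, is brought to the capped end of the mRNA by eIF4F, which is made of the cap-binding protein eIF4E, the helicase eIF4A and the scaffold eIF4G. Control acts mainly at 2 points: stress kinases phosphorylate eIF2 alpha and so block its exchange factor eIF2B, and the 4E-binding proteins, when not phosphorylated by mTOR, keep eIF4E from eIF4G. Cap-dependent translation has been reported to be reduced in mitotic cells, and it was not measured here.

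The unit is FPKM, as deposited, which divides the fragments of a gene by its length and by the mapped total. Differences are log2 fold changes of FPKM + 1 with their standard error (SE), tested with limma over all 13471 genes, and a gene was called higher or lower at a Benjamini-Hochberg adjusted p below 0.05. The labels do not say that the 2 libraries of a group came from separate cultures, so the p-values measure only the spread between these libraries. How many fragments each library holds is unknown, and the steps between low values, which rest on 17 to 49 genes per library, put the libraries between 0.639 and 1.19 of the depth of the first interphase library without IP, with both ends in the mitotic IP. The 10 highest genes of each library held 58.4% to 63.0% of its summed FPKM without IP and 12.4% to 20.6% in the IP. The 55 genes together held 0.196% to 0.260% without IP and 0.491% to 1.02% in the IP, while their own summed FPKM ranged from 2258 to 3269 over all 8 libraries. With libraries centred on their medians, the median of all genes in the interphase IP shifted from 0.02 to 0.14 (log2 fold change). Of 7 marker genes of pigment epithelium, the gene table lists PMEL, at 0.144 FPKM or less in every library, and MITF and OTX2, at 3.33 to 33.2 FPKM. RPE65, BEST1, RLBP1 and TYRP1 are not among its rows, and neither are the blood markers PTPRC and HBB. The mitotic genes CCNB1, PLK1 and CDC20 were higher in each mitotic library without IP than in each interphase library without IP.

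In interphase without IP the highest was EIF4G2, at 291 and 323 FPKM, followed by EIF5A at 209 and 237 FPKM, EIF4A1 at 151 and 141 FPKM, EIF6 at 147 and 129 FPKM and EIF3E at 130 and 140 FPKM. The range of EIF6 overlaps those of EIF4A1 and EIF3E, so the order of these 3 is not fixed by the libraries. At the other end, EIF3C and EIF3CL were at 0.170 FPKM or less in all 8 libraries. They are near-identical copies that share an interval in the table, and how their shared reads were treated is not given in the sources used here, so their levels are uncertain. EIF4E3 stayed at 1.37 FPKM or less. In all, 16 of the 55 rows share their interval with another row and 10 have an interval more than 1.5 times as long as the annotated gene, which makes their values uncertain too, and 37 have an interval of their own. Among the shared ones are EIF4A1 (SENP3 and snoRNA genes) and EIF4A2 (RFC4 and snoRNA genes), whose ratio is therefore uncertain as well. Others overlap a small RNA gene: EIF1AX (SCARNA9L), EIF3A (SNORA19), EIF4G2 (SNORD97) and EIF5 (SNORA28). The rest overlap other genes: EIF1AD (BANF1), EIF2AK1 (AIMP2 and ANKRD61), EIF2B1 (GTF2H3), EIF3G (PPAN), EIF3J (SPG11), EIF3L (several genes), EIF4E2 (TIGD1) and EIF4EBP3 (ANKHD1).

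In the interphase IP the initiation factor genes split in both directions: 20 were higher than without IP, 27 were lower and 8 were not called. Calls in either direction were made for 74.6% of all genes (37.6% higher and 37.0% lower), so a call by itself does not set these genes apart from the table. The median log2 fold change was -0.21 over the 55 genes and 0.02 over all genes. The largest increases were EIF2AK2 (log2 fold change 2.12), EIF4EBP2 (1.90), EIF5A2 (1.69) and EIF1AX (1.40), and the largest decreases EIF4EBP1 (-3.37), EIF3K (-2.82), EIF6 (-2.24) and EIF5A (-2.01). In the mitotic IP 15 were higher, 26 lower and 14 not called, where 64.5% of all genes were called (32.8% higher and 31.7% lower). The medians were -0.28 over the 55 genes and 0.01 over all genes. With length and GC trends removed, 7 in place of 15 were higher in the mitotic IP. The effect of the IP itself changed between the phases, tested as an interaction, for 35 of the 55 genes, and for 47.1% of all genes. The signed log2 effect was more positive in mitosis for 17 (27.2% of all genes), which includes genes that were less depleted there, and more negative for 18 (19.9% of all genes). Of the 47, 41 and 35 calls, 29, 22 and 18 kept their call and sign under each of 16 alternative analyses. The alternative that ended the most calls removed the trends with transcript length and GC content, after which 29 of 47, 28 of 41 and 22 of 35 remained. Under it 5 of the 47, 5 of the 41 and 2 of the 35 had the opposite sign. These opposite effects were themselves called for 4, 2 and 0 genes. Leaving out some single library ended 4, 10 and 9 of the 47, 41 and 35 calls.

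**Figure D1:**
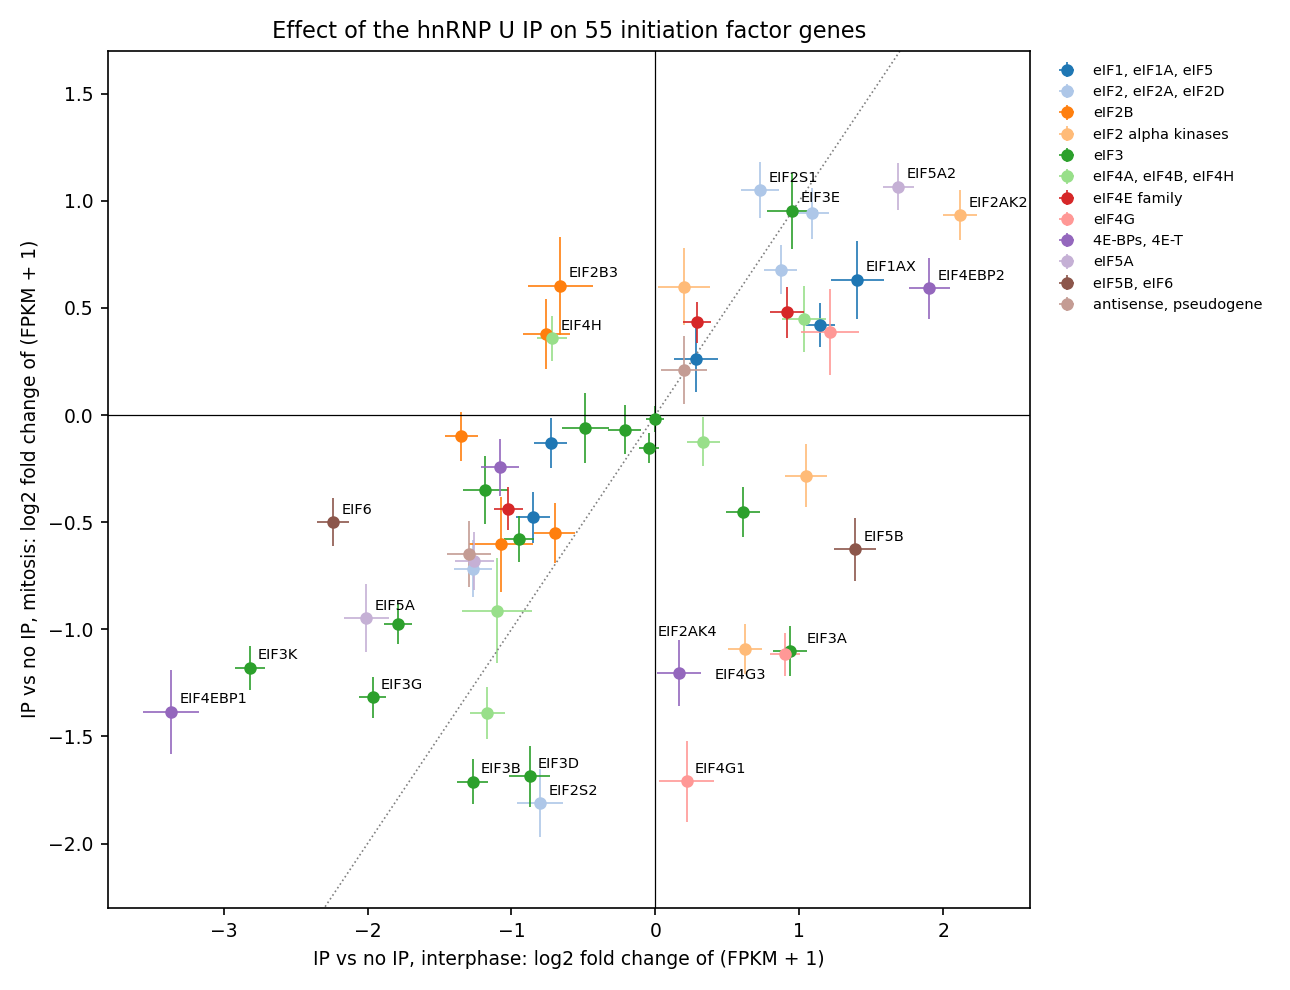
Each point is 1 of the 55 genes, at its log2 fold change of FPKM + 1 in the interphase IP (horizontal) and the mitotic IP (vertical), with bars of 1 SE, coloured by factor; the dotted line marks equal effects. EIF4EBP1 lies at -3.37 and -1.39, EIF2AK2 at 2.12 and 0.93, and EIF3A, EIF4G3, EIF5B and EIF2AK4 lie to the right of 0 and below it.

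**Figure D2:**
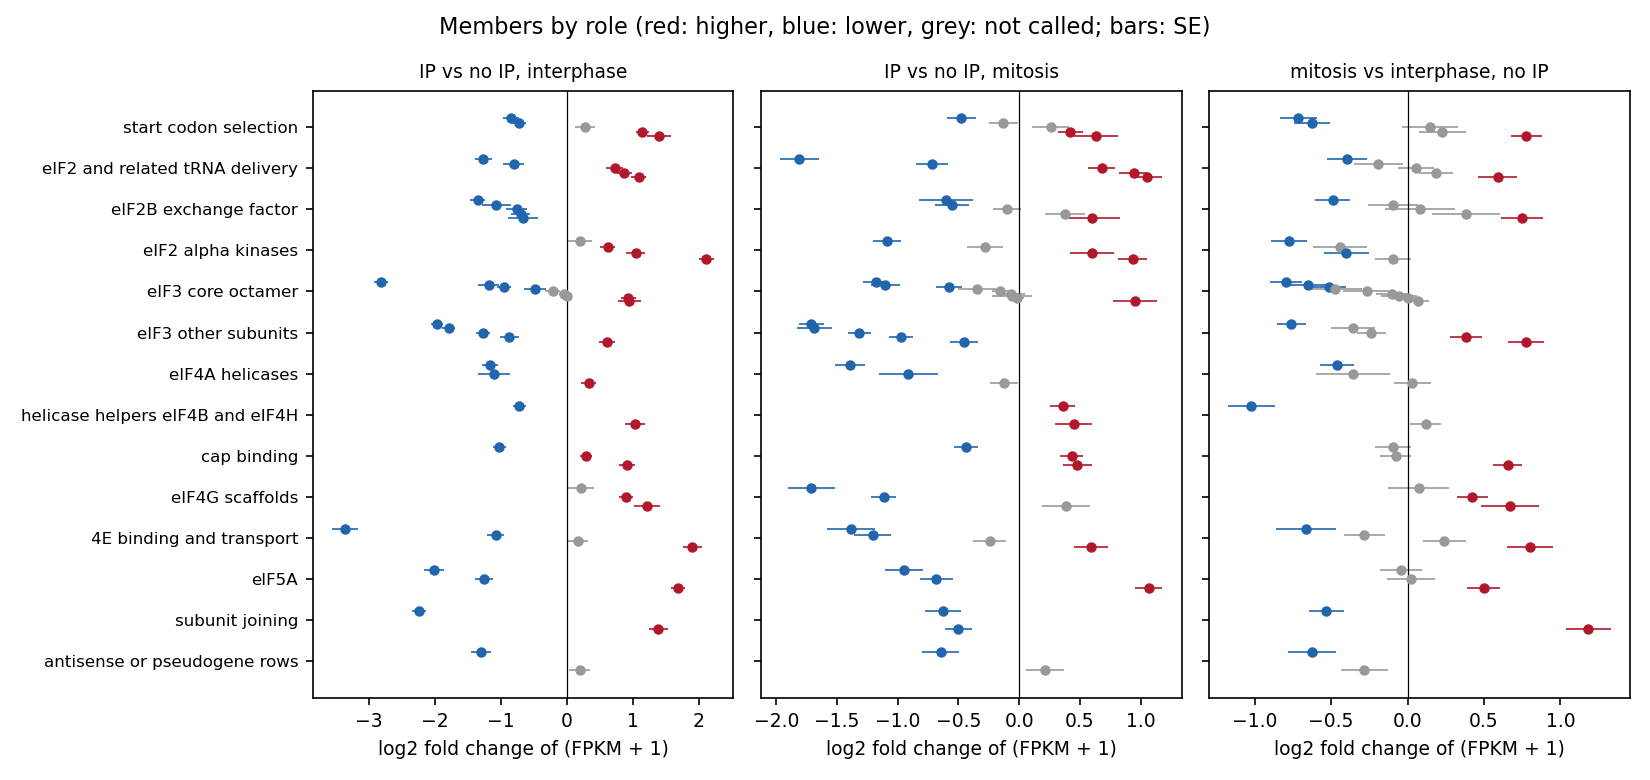
Log2 fold change of FPKM + 1 with 1 SE for each gene, arranged by role, in the interphase IP, the mitotic IP and mitosis against interphase without IP; red points were called higher, blue points lower and grey points not called. All 5 eIF2B genes are blue in the first panel, where 37.0% of all genes were lower. All 5 eIF3 genes outside the core octamer are blue in the second, where 31.7% of all genes were lower.

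Of the factors that choose the start codon, the small partners of the ribosomal subunit did not move together. EIF1AX, which encodes the eIF1A protein that occupies the A site, had 16.3 and 18.2 FPKM without IP and 43.5 and 51.0 FPKM with IP in interphase. In mitosis EIF1AX had 16.3 and 22.5 FPKM without IP and 26.0 and 35.2 FPKM with IP. The IP libraries lay above those without IP in both phases, with a log2 fold change of 1.40 (SE 0.18, adjusted p = 0.000105) in interphase and 0.63 (SE 0.18, adjusted p = 0.014) in mitosis. EIF5, the gene of the GTPase-activating partner of eIF2, had 42.7 and 37.8 FPKM in the interphase libraries without IP, 91.1 and 89.2 FPKM in those with IP, 69.1 and 70.0 FPKM in the mitotic libraries without IP and 91.7 and 95.2 FPKM in those with IP. Its IP libraries were the higher ones in each phase, by a log2 fold change of 1.15 (SE 0.10, adjusted p = 9.73e-06) in interphase and by a log2 fold change of 0.42 (SE 0.10, adjusted p = 0.00586) in mitosis. EIF1, which guards the start codon against near-matches, had 81.0 and 105 FPKM without IP and 105 and 120 FPKM with IP in interphase. In mitosis EIF1 had 99.6 and 117 FPKM without IP and 130 and 129 FPKM with IP. The IP libraries were above those without IP in mitosis and barely so in interphase, and the differences of 0.28 (SE 0.15, adjusted p = 0.124) and 0.26 (SE 0.15, adjusted p = 0.166) did not pass. Its copy EIF1B, with 82.0% identical coding bases, had 18.1 and 18.4 FPKM in the interphase libraries without IP, 10.8 and 10.5 FPKM in those with IP, 11.6 and 11.3 FPKM in the mitotic libraries without IP and 11.7 and 9.25 FPKM in those with IP. It was lower in the interphase IP with a log2 fold change of -0.73 (SE 0.12, adjusted p = 0.000425), the mitotic groups overlapped (-0.13, SE 0.12, adjusted p = 0.361, not called), and its interval in the table is far longer than the gene. Once the length and GC trends were removed, the interphase calls of EIF1AX, EIF5 and EIF1B were lost, EIF1 was called higher in interphase (0.40), and in mitosis EIF1AX turned to -0.13 and EIF5 to -0.11. EIF1AX also lost its mitotic call without replicate 1 of mitosis without IP or replicate 2 of the mitotic IP, and EIF5 lost its own under quantile normalization.

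The genes of the tRNA carrier eIF2 parted by subunit. EIF2S1, the alpha subunit that the stress kinases phosphorylate, had 28.7 and 23.9 FPKM without IP and 46.1 and 41.9 FPKM with IP in interphase. In mitosis EIF2S1 had 37.5 and 42.4 FPKM without IP and 77.7 and 90.0 FPKM with IP. It was higher in the IP by a log2 fold change of 0.73 (SE 0.13, adjusted p = 0.00077) in interphase and by a log2 fold change of 1.05 (SE 0.13, adjusted p = 0.000123) in mitosis. EIF2S3, the GTP-binding gamma subunit, had 45.6 and 43.7 FPKM in the interphase libraries without IP, 74.9 and 90.5 FPKM in those with IP, 49.8 and 52.1 FPKM in the mitotic libraries without IP and 81.3 and 82.9 FPKM in those with IP. EIF2A, which encodes a separate protein that can carry the initiator tRNA, had 22.6 and 24.5 FPKM without IP and 45.7 and 57.1 FPKM with IP in interphase. In mitosis EIF2A had 24.5 and 24.3 FPKM without IP and 46.7 and 49.0 FPKM with IP. For both genes all 4 IP libraries lay above all 4 without IP. The log2 fold change of EIF2S3 was 0.87 (SE 0.11, adjusted p = 0.000107) in interphase and 0.68 (SE 0.11, adjusted p = 0.00072) in mitosis, and that of EIF2A was 1.09 (SE 0.12, adjusted p = 3.36e-05) and 0.94 (SE 0.12, adjusted p = 0.000137). The beta subunit gene EIF2S2 went the other way, with 35.0 and 38.6 FPKM in the interphase libraries without IP, 18.6 and 22.9 FPKM in those with IP, 28.4 and 36.2 FPKM in the mitotic libraries without IP and 7.47 and 9.51 FPKM in those with IP. All 4 of its IP libraries lay below all 4 without IP, and its log2 fold change was -0.80 (SE 0.16, adjusted p = 0.00148) in interphase and -1.81 (SE 0.16, adjusted p = 2.24e-05) in mitosis, the largest decrease among the 55 genes in the mitotic IP. The interaction for EIF2S2 was -1.01 (SE 0.22, adjusted p = 0.00621). With length and GC trends removed EIF2S2 kept its calls (-0.89 and -2.0), as did EIF2S3 and EIF2A, while EIF2S1 turned to -0.19 in interphase and stayed at 0.44 in mitosis.

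All 5 genes of eIF2B, the exchange factor that reloads eIF2 with GTP, were lower in the interphase IP, with log2 fold changes from -1.35 (EIF2B2) to -0.66 (EIF2B3). Of all genes, 37.0% were lower there, so this direction was common in the table. In the mitotic IP EIF2B3 was higher (0.60), EIF2B4 and EIF2B5 were lower (-0.60 and -0.55), and EIF2B1 and EIF2B2 were not called. There 32.8% of all genes were higher and 31.7% lower. EIF2B1, the gene of the regulatory alpha subunit, was the highest of the 5 without IP and had 29.9 and 28.1 FPKM without IP and 16.9 and 16.6 FPKM with IP in interphase. In mitosis EIF2B1 had 24.5 and 30.0 FPKM without IP and 29.8 and 42.4 FPKM with IP. Its interphase IP libraries were the lowest of the 8. EIF2B3, the gene of the gamma subunit, had 11.6 and 8.06 FPKM in the interphase libraries without IP, 6.88 and 4.81 FPKM in those with IP, 9.11 and 11.6 FPKM in the mitotic libraries without IP and 13.6 and 19.1 FPKM in those with IP. Its groups did not overlap within a phase, with a log2 fold change of -0.66 (SE 0.23, adjusted p = 0.0261) in interphase and 0.60 (SE 0.23, adjusted p = 0.0434) in mitosis. Compared with the interphase IP, all 5 were higher in the mitotic IP, by a log2 fold change of 0.76 (EIF2B2) to 1.34 (EIF2B3), where 35.8% of all genes were higher and 61.4% were called in either direction. These 5 calls held with the length and GC trends removed, at 0.76 to 1.06, and the call of EIF2B4 was lost without replicate 2 of either IP group. Without IP, only EIF2B5 (0.75) was higher and EIF2B2 (-0.49) lower in mitosis. The interaction passed for EIF2B1 (1.14), EIF2B2 (1.25) and EIF2B3 (1.26), and for EIF2B3 it was lost with the trends removed. With the trends removed the interphase effect of EIF2B3 was -0.16, no longer called, and those of the other 4 were still called. Single calls in this complex were fragile. The interphase call of EIF2B3 was lost without replicate 1 of interphase without IP or replicate 2 of the interphase IP. Its mitotic call was lost without replicate 1 of mitosis without IP or replicate 2 of the mitotic IP. Fitting limma without its mean trend ended that mitotic call too. The mitotic call of EIF2B4 was lost under 10 of the 16 alternatives.

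The 4 kinases of eIF2 alpha sense different stresses and differed in the IP as well. EIF2AK2 (PKR, which senses double-stranded RNA; chr2:37099210-37157065, minus strand, GRCh38) had 21.7 and 23.1 FPKM without IP and 95.2 and 106 FPKM with IP in interphase. In mitosis EIF2AK2 had 19.2 and 22.8 FPKM without IP and 38.7 and 43.1 FPKM with IP. The IP libraries were the higher ones in each phase, and the log2 fold change of 2.12 (SE 0.12, adjusted p = 8.39e-07) in interphase was the largest increase among the 55 genes. In mitosis it was 0.93 (SE 0.12, adjusted p = 0.000139), and the interaction was -1.19 (SE 0.17, adjusted p = 0.00062). EIF2AK4 (GCN2, which senses uncharged tRNA; chr15:39934146-40035591, plus strand, GRCh38) had 26.0 and 28.5 FPKM in the interphase libraries without IP, 38.4 and 46.9 FPKM in those with IP, 15.8 and 15.2 FPKM in the mitotic libraries without IP and 6.73 and 6.74 FPKM in those with IP. It was above its level without IP in interphase, by a log2 fold change of 0.62 (SE 0.12, adjusted p = 0.000978), and below it in mitosis, with a log2 fold change of -1.09 (SE 0.12, adjusted p = 5.31e-05), and the interaction of -1.71 (SE 0.16, adjusted p = 0.00011) passed. EIF2AK1 (HRI, the kinase known for sensing haem) had 21.6 and 24.8 FPKM without IP and 42.2 and 56.6 FPKM with IP in interphase. In mitosis EIF2AK1 had 17.1 and 17.6 FPKM without IP and 13.2 and 15.0 FPKM with IP. It was higher in the interphase IP (1.05, SE 0.15, adjusted p = 0.000161), and in mitosis its IP libraries were below the others without a call (-0.28, SE 0.15, adjusted p = 0.119). EIF2AK3 (PERK, the kinase of the endoplasmic reticulum) had 4.31 and 5.00 FPKM in the interphase libraries without IP, 4.68 and 6.37 FPKM in those with IP, 3.81 and 2.59 FPKM in the mitotic libraries without IP and 5.54 and 5.05 FPKM in those with IP. Its interphase groups overlapped, and the IP was called higher in mitosis (0.60, SE 0.18, adjusted p = 0.0166), a call lost without replicate 1 of the mitotic IP, without replicate 2 of mitosis without IP and with length and GC trends removed (0.28). After removal of the length and GC trends, the interphase effects of EIF2AK2, EIF2AK1 and EIF2AK4 were 0.76, 0.76 and 0.27, the last no longer called, and the mitotic effects of EIF2AK2, EIF2AK1 and EIF2AK4 were 0.15, no longer called, -0.44, now called, and -1.23.

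eIF3, the largest factor, is a scaffold of many subunits around a core octamer, and its genes spread from -2.82 to 0.95 on the log2 scale in the interphase IP. In the interphase IP 2 of the 9 octamer rows were higher, 4 lower and 3 not called, and in the mitotic IP 1 was higher, 3 were lower and 5 not called. These 9 rows count both EIF3C and its copy EIF3CL, which were at 0.170 FPKM or less and not called in either phase. Of all genes, 37.6% were higher and 37.0% lower in interphase, and 32.8% higher and 31.7% lower in mitosis. Of the 5 other subunits, 1 was higher and 4 were lower in interphase, and all 5 were lower in mitosis, with log2 fold changes from -1.71 (EIF3B) to -0.45 (EIF3J). The smallest octamer subunit, EIF3K, had 101 and 101 FPKM without IP and 14.3 and 12.7 FPKM with IP in interphase. In mitosis EIF3K had 58.3 and 57.2 FPKM without IP and 26.6 and 23.4 FPKM with IP. In each phase its IP libraries were well below those without IP, with a log2 fold change of -2.82 (SE 0.10, adjusted p = 2.51e-07) in interphase and -1.18 (SE 0.10, adjusted p = 2.18e-05) in mitosis, and the interaction was 1.64 (SE 0.15, adjusted p = 9.02e-05). EIF3E, a subunit also known as INT6, was the only octamer gene called higher in both phases, with 130 and 140 FPKM in the interphase libraries without IP, 222 and 307 FPKM in those with IP, 87.2 and 107 FPKM in the mitotic libraries without IP and 181 and 196 FPKM in those with IP. It was about as much higher in the IP in interphase (0.95, SE 0.18, adjusted p = 0.00105) as in mitosis (0.95, SE 0.18, adjusted p = 0.00138), and the interaction was 0.00 (SE 0.25, adjusted p = 0.995). These calls of EIF3K and EIF3E remained under all 16 alternatives.

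EIF3A, the gene of the largest eIF3 subunit (chr10:119033670-119080823, minus strand, GRCh38), changed direction between the phases. It had 32.9 and 33.8 FPKM without IP and 69.5 and 60.4 FPKM with IP in interphase. In mitosis EIF3A had 34.1 and 30.2 FPKM without IP and 13.4 and 15.6 FPKM with IP. The 4 libraries without IP lay within 30.2 to 34.1 FPKM, the interphase IP libraries were above all of them and the mitotic IP libraries below all of them. Its log2 fold change was 0.94 (SE 0.12, adjusted p = 8.26e-05) in interphase and -1.10 (SE 0.12, adjusted p = 5.63e-05) in mitosis, and the interaction was -2.04 (SE 0.17, adjusted p = 7.17e-05), the most negative of the 55. EIF3J, a loosely bound subunit that helps to release and recycle the small ribosomal subunit, had 19.2 and 16.4 FPKM in the interphase libraries without IP, 28.5 and 26.8 FPKM in those with IP, 30.1 and 32.0 FPKM in the mitotic libraries without IP and 24.2 and 20.7 FPKM in those with IP. It showed the same change of sign, with no overlap between the groups of a phase (0.61, SE 0.12, adjusted p = 0.00116 in interphase and -0.45, SE 0.12, adjusted p = 0.00766 in mitosis), and the interaction was -1.06 (SE 0.16, adjusted p = 0.000991). With length and GC trends removed the interphase effects fell to 0.11 and 0.15 and were not called, and the mitotic effects were -1.54 and -0.82. The mitotic call of EIF3J was lost without replicate 2 of the mitotic IP.

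The subunits outside the octamer, which work around the mRNA channel, were lower in the IP in both phases, except for EIF3J in interphase. EIF3B had 48.1 and 48.0 FPKM without IP and 20.3 and 18.4 FPKM with IP in interphase. In mitosis EIF3B had 58.4 and 67.7 FPKM without IP and 19 and 18.1 FPKM with IP. EIF3D, a subunit that can bind caps itself, had 62.7 and 62.6 FPKM in the interphase libraries without IP, 33.5 and 34.0 FPKM in those with IP, 45.9 and 51.7 FPKM in the mitotic libraries without IP and 12.2 and 17.0 FPKM in those with IP. Their IP libraries were below those without IP in both phases, with a log2 fold change of -1.27 (SE 0.11, adjusted p = 6.49e-06) and -0.87 (SE 0.14, adjusted p = 0.000463) in interphase and with a log2 fold change of -1.71 (SE 0.11, adjusted p = 7.31e-06) and -1.69 (SE 0.14, adjusted p = 1.94e-05) in mitosis. EIF3I, the highest of the 5 without IP, had 107 and 113 FPKM without IP and 30.8 and 31.4 FPKM with IP in interphase. In mitosis EIF3I had 89.3 and 97.2 FPKM without IP and 47.2 and 46.7 FPKM with IP. Its IP libraries were the lower ones, with log2 fold changes of -1.79 (SE 0.10, adjusted p = 7.48e-07) and -0.97 (SE 0.10, adjusted p = 3.95e-05). EIF3G, whose product binds RNA and eIF4B, had 92.0 and 92.0 FPKM in the interphase libraries without IP, 21.7 and 24.0 FPKM in those with IP, 53.0 and 55 FPKM in the mitotic libraries without IP and 21.7 and 20.4 FPKM in those with IP. All 4 of its IP libraries lay below all 4 without IP, with log2 fold changes of -1.96 (SE 0.10, adjusted p = 5.13e-07) and -1.32 (SE 0.10, adjusted p = 1.08e-05). For EIF3G the interaction of 0.65 (SE 0.13, adjusted p = 0.00448) turned to -0.34 with length and GC trends removed, and the interphase call of EIF3D was lost (-0.14). The same step left EIF3B at -0.61 and -1.31, EIF3I at -0.83 and -0.69, and EIF3D at -1.50 in mitosis, all called. The pseudogene row EIF3IP1, a near-copy of EIF3I, had 5.60 and 7.04 FPKM without IP and 1.92 and 2.01 FPKM with IP in interphase. In mitosis EIF3IP1 had 4.31 and 5.73 FPKM without IP and 2.67 and 2.97 FPKM with IP. It was lower in both phases (-1.30 and -0.65), both calls were lost with the trends removed (-0.23 and -0.21), and reads of the gene and the copy cannot be told apart here.

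The helicase genes EIF4A1 and EIF4A2, which encode near-equal forms of the enzyme that unwinds the start of the mRNA, parted in the interphase IP. Their coding sequences have 76.7% identical bases, and the share of codons that end in G or C (GC3, for position 3) was 61.6% in EIF4A1 and 43.2% in EIF4A2. The first 60 coding bases of each are shown as the start of a pair that encodes nearly the same protein. In this stretch the difference is small, with 13 of 20 codons ending in G or C in EIF4A1 and 11 of 20 in EIF4A2. They are from GENCODE release 29, GRCh38, at chr17:7572842-7574296 (plus strand) and chr3:186783611-186784462 (plus strand), each across 1 intron, and capitals mark a G or C at the last position of a codon.
EIF4A1: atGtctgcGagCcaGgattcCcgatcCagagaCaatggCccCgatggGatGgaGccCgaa
EIF4A2: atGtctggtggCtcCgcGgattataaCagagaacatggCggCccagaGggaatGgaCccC
EIF4A1 had 151 and 141 FPKM in the interphase libraries without IP, 63.1 and 65.2 FPKM in those with IP, 139 and 160 FPKM in the mitotic libraries without IP and 52.3 and 60.2 FPKM in those with IP. Its IP libraries lay below those without IP in both phases, with a log2 fold change of -1.17 (SE 0.12, adjusted p = 2.59e-05) and -1.39 (SE 0.12, adjusted p = 2.25e-05), and with length and GC trends removed it stayed called (-0.51 and -1.26). EIF4A2 had 122 and 108 FPKM without IP and 148 and 141 FPKM with IP in interphase. In mitosis EIF4A2 had 81.8 and 84.3 FPKM without IP and 73.0 and 79.3 FPKM with IP. It was higher in the interphase IP by a log2 fold change of 0.33 (SE 0.11, adjusted p = 0.0239) and not called in mitosis (-0.12, SE 0.11, adjusted p = 0.362), so the EIF4A2 to EIF4A1 ratio went from 0.807 and 0.770 without IP to 2.35 and 2.17 in the interphase IP, and from 0.590 and 0.529 to 1.40 and 1.32 in mitosis. The interphase call of EIF4A2 was not stable, since it turned to -0.73 with length and GC trends removed and was lost without replicate 1 of the interphase IP or replicate 2 of interphase without IP. The trend step used the longest transcript of EIF4A2, with 5327 bases. Its coding transcript has 64 untranslated bases before and 631 after the 1221 coding bases, and the part of this choice was not tested. EIF4A3, the helicase of the exon junction complex, had 30.1 and 28.0 FPKM in the interphase libraries without IP, 15.8 and 10.6 FPKM in those with IP, 18.6 and 27.0 FPKM in the mitotic libraries without IP and 9.16 and 14.2 FPKM in those with IP. Its IP libraries were the lower ones in both phases (-1.10, SE 0.24, adjusted p = 0.00284 and -0.91, SE 0.24, adjusted p = 0.00965), also with the trends removed (-1.35 and -1.13), and its mitotic call was lost without replicate 1 of the mitotic IP or replicate 2 of mitosis without IP.

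The helper genes of the helicase also went separate ways in interphase. EIF4B (chr12:53006158-53042209, plus strand, GRCh38), whose product stimulates eIF4A, had 97.9 and 112 FPKM without IP and 190 and 245 FPKM with IP in interphase. In mitosis EIF4B had 47.6 and 54.9 FPKM without IP and 66.9 and 73.5 FPKM with IP. In interphase the IP libraries were the higher ones, by a log2 fold change of 1.03 (SE 0.15, adjusted p = 0.000232). In mitosis the difference was 0.45 (SE 0.15, adjusted p = 0.0283). That call was lost without replicate 1 of mitosis without IP or replicate 2 of the mitotic IP. It was also lost under quantile normalization and with the length and GC trends removed. EIF4H, a related helper, had 61.9 and 55.2 FPKM in the interphase libraries without IP, 35.0 and 35.4 FPKM in those with IP, 60.8 and 66.4 FPKM in the mitotic libraries without IP and 84.1 and 79.4 FPKM in those with IP. It was lowest in the interphase IP and highest in the mitotic IP, with effects of -0.72 (SE 0.10, adjusted p = 0.000209) and 0.36 (SE 0.10, adjusted p = 0.0142) and an interaction of 1.07 (SE 0.15, adjusted p = 0.000546). With the trends removed its interphase effect was -0.11, not called, and the interaction was 0.67, still called. The mitotic call of EIF4H was lost without replicate 1 of either mitotic group and under quantile normalization.

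Of the cap-binding genes, EIF4E, which encodes the protein that recruits eIF4G to the cap, had 9.64 and 9.79 FPKM without IP and 11.7 and 12.4 FPKM with IP in interphase. In mitosis EIF4E had 15.2 and 16.5 FPKM without IP and 21.7 and 21.8 FPKM with IP. It was slightly higher in the IP, by a log2 fold change of 0.29 (SE 0.10, adjusted p = 0.0215) in interphase and 0.43 (SE 0.10, adjusted p = 0.00354) in mitosis. The interphase call was lost when 1 library was left out (either replicate of interphase without IP, or replicate 2 of the interphase IP), and with length and GC trends removed both effects turned, to -1.12 and -0.37. EIF4E2, a form that binds caps without bringing eIF4G and acts in repression, had 36.3 and 39.8 FPKM in the interphase libraries without IP, 18.7 and 17.7 FPKM in those with IP, 36.4 and 35.4 FPKM in the mitotic libraries without IP and 27.8 and 24.8 FPKM in those with IP. It was lower in the IP in both phases (-1.02, SE 0.10, adjusted p = 1.76e-05 and -0.44, SE 0.10, adjusted p = 0.00445), also with the trends removed (-1.16 and -0.58). EIF4E3, another relative, had 0.232 and 0.256 FPKM without IP and 1.31 and 1.37 FPKM with IP in interphase. In mitosis EIF4E3 had 0.218 and 0.115 FPKM without IP and 0.840 and 0.436 FPKM with IP. It was called higher in both phases (0.91, SE 0.12, adjusted p = 0.000102 and 0.48, SE 0.12, adjusted p = 0.00638), with a reversal to -0.55 and -0.39 once the trends were removed. At such low values log2(FPKM + 1) understates the change.

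For all 3 scaffold genes the interaction was negative and called, as it was for 19.9% of all genes. EIF4G1 and EIF4G3 have at least 3000 coding bases, and 47.7% of all genes of that length had such a call. EIF4G1 (chr3:184314495-184335358, plus strand, GRCh38), the main scaffold between the cap and the ribosome, had 41.0 and 40.7 FPKM in the interphase libraries without IP, 60.5 and 37.5 FPKM in those with IP, 70.1 and 61.4 FPKM in the mitotic libraries without IP and 19.2 and 19.6 FPKM in those with IP. Without IP it was higher in mitosis, and in the IP it was lower in mitosis. The interphase IP replicates disagreed about it, 1 above and 1 below both libraries without IP (0.22, SE 0.19, adjusted p = 0.327), while both mitotic IP libraries were the lowest of the 8 (-1.71, SE 0.19, adjusted p = 6.93e-05), and the interaction was -1.93 (SE 0.27, adjusted p = 0.000598). EIF4G3, its close relative (chr1:20806292-21176888, minus strand, GRCh38), had 9.36 and 10.2 FPKM without IP and 19.8 and 18.5 FPKM with IP in interphase. In mitosis EIF4G3 had 13.5 and 13.4 FPKM without IP and 5.81 and 5.53 FPKM with IP. It was higher in the interphase IP (0.90, SE 0.10, adjusted p = 4.11e-05) and lower in the mitotic IP (-1.12, SE 0.10, adjusted p = 2.55e-05), with an interaction of -2.02 (SE 0.14, adjusted p = 5.28e-05). These calls of EIF4G1 and EIF4G3 remained under all 16 alternatives, and with length and GC trends removed EIF4G1 was also called higher in interphase (0.68). EIF4G2 (DAP5), which lacks the eIF4E-binding part, had 291 and 323 FPKM in the interphase libraries without IP, 633 and 801 FPKM in those with IP, 308 and 338 FPKM in the mitotic libraries without IP and 386 and 461 FPKM in those with IP. Both interphase IP libraries exceeded every other library, with a log2 fold change of 1.21 (SE 0.20, adjusted p = 0.000475) against no IP, and the mitotic difference of 0.39 (SE 0.20, adjusted p = 0.121) did not pass. With the trends removed the interphase effect of EIF4G2 fell to 0.16 and was not called. That step used its longest transcript, with 6769 bases. The coding transcript of EIF4G2 has 511 untranslated bases before and 766 after the 2721 coding bases, and the part of this choice was not tested. The interaction of EIF4G2 (-0.83, SE 0.28, adjusted p = 0.0398) was lost under 8 of the 16 alternatives, 6 of which left out 1 library (any but replicate 1 of the interphase IP and replicate 2 of the mitotic IP).

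The genes of the 4E-binding proteins, the repressors of eIF4E, went opposite ways. EIF4EBP1 had 97.5 and 94.2 FPKM without IP and 8.19 and 8.6 FPKM with IP in interphase. In mitosis EIF4EBP1 had 57.3 and 63.2 FPKM without IP and 17.3 and 29 FPKM with IP. Both interphase IP libraries were far below all others, and the log2 fold change of -3.37 (SE 0.20, adjusted p = 1.04e-06) was the largest decrease of the 55 genes. EIF4EBP2 (chr10:70404379-70428618, plus strand, GRCh38) had 42.4 and 49.1 FPKM in the interphase libraries without IP, 156 and 192 FPKM in those with IP, 57.8 and 50.6 FPKM in the mitotic libraries without IP and 87.0 and 77.3 FPKM in those with IP. It was highest in the interphase IP, by a log2 fold change of 1.90 (SE 0.14, adjusted p = 3.55e-06). The EIF4EBP2 to EIF4EBP1 ratio was thus 0.435 and 0.521 without IP and 19.1 and 22.3 in the interphase IP, against 1.0 and 0.800 without IP and 5.03 and 2.67 in the IP in mitosis. In the mitotic IP EIF4EBP1 remained lower (-1.39, SE 0.20, adjusted p = 0.000267) and EIF4EBP2 higher (0.59, SE 0.14, adjusted p = 0.00549), with interactions of 1.98 (SE 0.28, adjusted p = 0.000598) and -1.31 (SE 0.20, adjusted p = 0.000951). Once the length and GC trends were removed, the interphase effects were -1.25 and 1.08, both called, the mitotic ones -0.46 and 0.19, neither called, and the interaction of EIF4EBP1 was 0.79, not called. EIF4EBP3 had 2.02 and 1.53 FPKM without IP and 0.30 and 0.323 FPKM with IP in interphase. In mitosis EIF4EBP3 had 1.19 and 1.36 FPKM without IP and 0.720 and 1.14 FPKM with IP. It was lower in the interphase IP (-1.08, SE 0.13, adjusted p = 7.16e-05) and not called in mitosis (-0.24, SE 0.13, adjusted p = 0.136), and the effects turned to 0.86 and 0.66 with the trends removed. EIF4ENIF1 (4E-T), which carries eIF4E into the nucleus, had 4.07 and 2.94 FPKM in the interphase libraries without IP, 3.72 and 4.32 FPKM in those with IP, 7.39 and 6.22 FPKM in the mitotic libraries without IP and 2.36 and 2.39 FPKM in those with IP. Its interphase groups overlapped (0.17, SE 0.15, adjusted p = 0.35) and its mitotic IP libraries were the lowest of the 8 (-1.21, SE 0.15, adjusted p = 0.000146). With the trends removed it was called higher in interphase (0.47) and stayed lower in mitosis (-1.04).

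**Figure D3:**
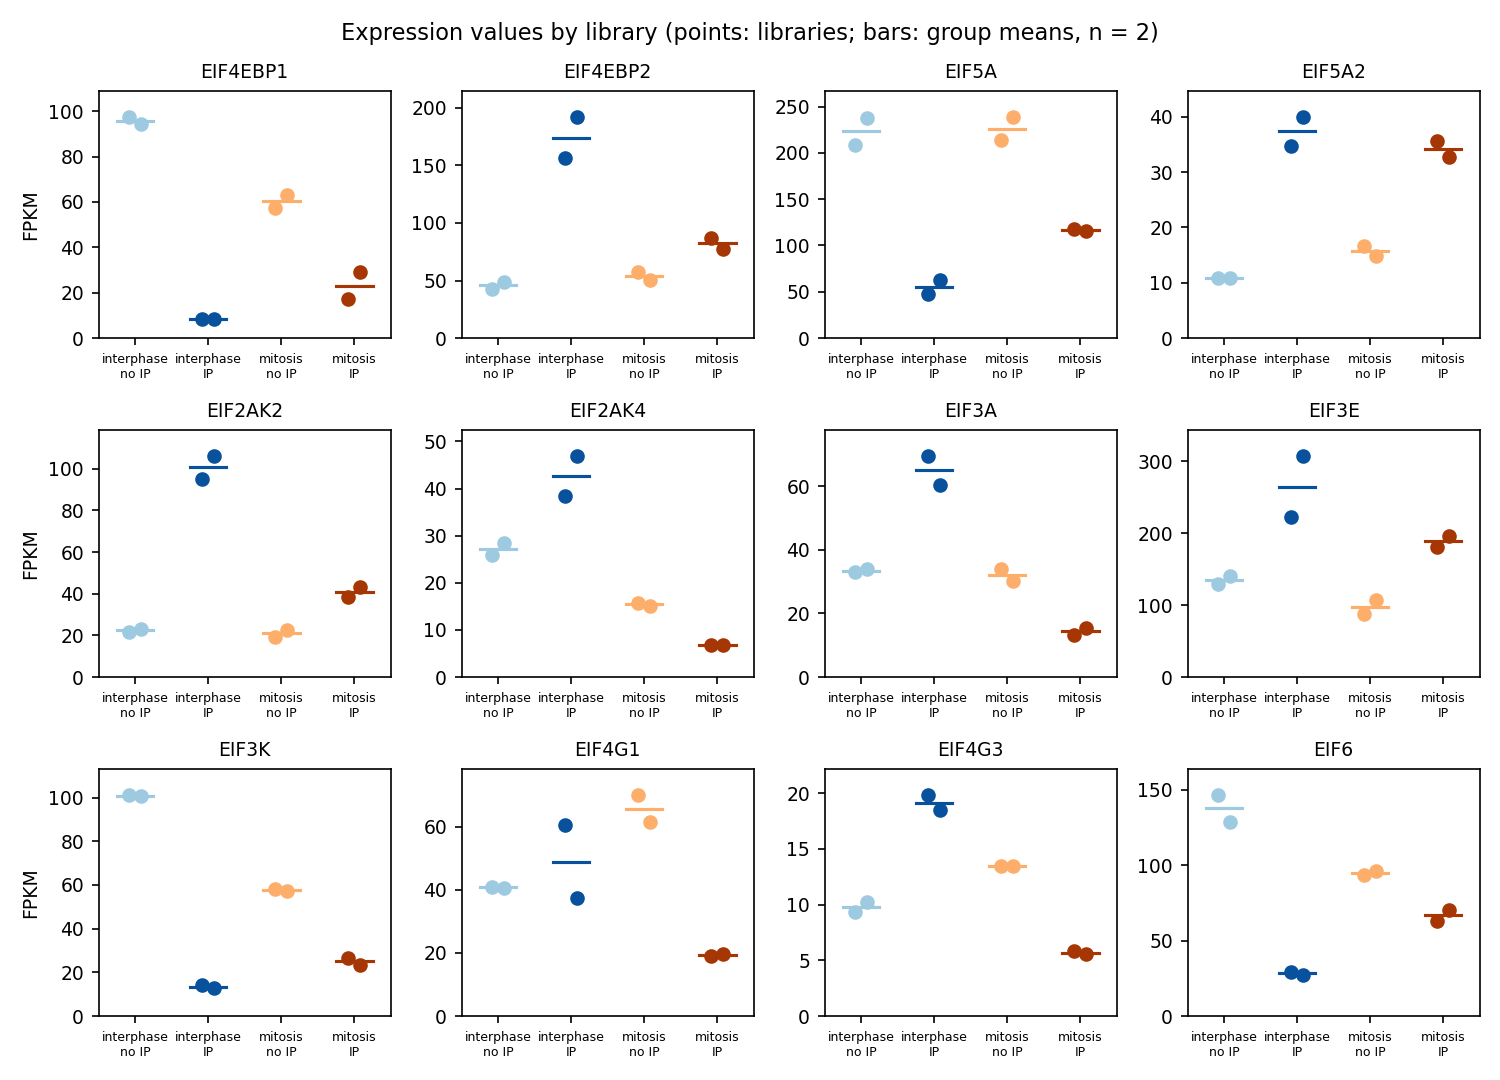
FPKM of 12 genes in the 8 libraries; each point is a library, each horizontal bar the mean of the 2 libraries of a group, and each vertical axis starts at 0. EIF4EBP1 drops from 94.2 and 97.5 FPKM to 8.19 and 8.6 FPKM in the interphase IP while EIF4EBP2 climbs to 156 and 192 FPKM, and for EIF3A, EIF4G3 and EIF2AK4 the IP is the highest group in interphase and the lowest group in mitosis.

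eIF5A, named as an initiation factor but best known for helping ribosomes through difficult peptide bonds and at termination, is encoded by a main gene and a second copy. Their coding sequences have 71.4% identical bases and a GC3 of 61.0% for EIF5A and 36.6% for EIF5A2. The first 60 coding bases are shown as for the helicases, at chr17:7309636-7309695 (plus strand) and chr3:170907747-170907806 (minus strand), again as the start of a pair of relatives, with 12 of 20 codons ending in G or C in EIF5A and 9 of 20 in EIF5A2.
EIF5A: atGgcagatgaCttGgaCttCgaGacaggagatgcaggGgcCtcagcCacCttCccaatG
EIF5A2: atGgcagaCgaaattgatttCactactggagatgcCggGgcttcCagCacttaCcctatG
EIF5A had 209 and 237 FPKM without IP and 47.2 and 63.0 FPKM with IP in interphase. In mitosis EIF5A had 214 and 239 FPKM without IP and 117 and 116 FPKM with IP. Its 4 IP libraries lay below its 4 libraries without IP, with a log2 fold change of -2.01 (SE 0.16, adjusted p = 4.55e-06) in interphase and -0.95 (SE 0.16, adjusted p = 0.000677) in mitosis. EIF5A2 had 10.9 and 10.8 FPKM in the interphase libraries without IP, 34.7 and 40 FPKM in those with IP, 16.7 and 14.9 FPKM in the mitotic libraries without IP and 35.6 and 32.7 FPKM in those with IP. Its 4 IP libraries lay above the others, by a log2 fold change of 1.69 (SE 0.11, adjusted p = 1.69e-06) and 1.07 (SE 0.11, adjusted p = 4.5e-05). The EIF5A2 to EIF5A ratio was 0.0522 and 0.0457 without IP and 0.735 and 0.634 in the interphase IP, and 0.0780 and 0.0624 without IP and 0.303 and 0.282 in the mitotic IP. The interactions were 1.06 (SE 0.22, adjusted p = 0.00445) for EIF5A and -0.62 (SE 0.15, adjusted p = 0.0102) for EIF5A2, and both were lost with length and GC trends removed (0.15 and -0.16), as was the mitotic effect of EIF5A2 (0.19). EIF5AL1, a near-copy of EIF5A at 1.26 to 4.83 FPKM, followed EIF5A (-1.26 and -0.68) and cannot be told apart from its reads.

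The factors of the last step, joining of the large ribosomal subunit, were opposites in interphase. EIF5B, the GTPase that brings the large subunit in (chr2:99337353-99401326, plus strand, GRCh38), had 4.79 and 4.36 FPKM without IP and 15.1 and 12.2 FPKM with IP in interphase. In mitosis EIF5B had 12.8 and 10.6 FPKM without IP and 6.59 and 7.84 FPKM with IP. In interphase the IP libraries were the higher ones (1.39, SE 0.15, adjusted p = 2.75e-05) and in mitosis the lower ones (-0.63, SE 0.15, adjusted p = 0.0048), with an interaction of -2.01 (SE 0.21, adjusted p = 0.000153). With length and GC trends removed the interphase effect was 0.27, not called, and the mitotic effect -1.32. EIF6, which keeps the subunits apart and acts in the maturation of the large one (chr20:35278911-35284985, minus strand, GRCh38), had 147 and 129 FPKM in the interphase libraries without IP, 29.3 and 27.3 FPKM in those with IP, 93.5 and 96.1 FPKM in the mitotic libraries without IP and 63.1 and 70.6 FPKM in those with IP. It was lower in the interphase IP with a log2 fold change of -2.24 (SE 0.11, adjusted p = 5.43e-07) and in the mitotic IP with a log2 fold change of -0.50 (SE 0.11, adjusted p = 0.00385), and the interaction was 1.74 (SE 0.16, adjusted p = 9.47e-05). With the trends removed the interphase effect of EIF6 was -0.65, still called, and the mitotic one turned to 0.11.

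Sorted by sign, 12 of the 55 genes had higher IP levels in both phases (21.8%, against 24.8% of all genes) and 19 were lower in both (34.5%, against 23.0%). The direction reversed with both effects called for 7. EIF2AK4, EIF3A, EIF3J, EIF4G3 and EIF5B went from higher in interphase to lower in mitosis, 9.09% of the set where 3.73% of all genes did so. EIF2B3 and EIF4H went from lower to higher, 3.64% where 2.47% of all genes did. After removal of the length and GC trends, 6 of the 7 lost their interphase call, and EIF4G3 alone kept both opposite calls under all 16 alternatives. The mitotic calls of EIF3J, EIF2B3 and EIF4H were also lost when single libraries were left out, as given above. Within the IP itself, mitosis against interphase gave 17 higher and 20 lower genes, where 61.4% of all genes were called (35.8% higher and 25.6% lower). EIF2B3 (1.34, SE 0.23, adjusted p = 0.000883), EIF4EBP1 (1.32, SE 0.20, adjusted p = 0.000402), EIF6 (1.21, SE 0.11, adjusted p = 2.76e-05) and EIF4H (1.19, SE 0.10, adjusted p = 1.97e-05) rose most. EIF2AK4 (-2.49, SE 0.12, adjusted p = 1.51e-06), EIF3A (-2.09, SE 0.12, adjusted p = 2.51e-06), EIF2AK1 (-1.73, SE 0.15, adjusted p = 1.7e-05) and EIF4B (-1.61, SE 0.15, adjusted p = 3.07e-05) fell most. With the trends removed 34 of these 37 calls remained, the others being EIF3I, EIF4E3 and EIF4EBP3.

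The change between phases was negative for most genes with a long coding sequence. The 6 genes with at least 3000 coding bases, a limit chosen after the values were seen, are EIF2AK3, EIF2AK4, EIF3A, EIF4G1, EIF4G3 and EIF5B. In the interphase IP 4 of them were higher and none lower, where 58.0% of all genes of that length were higher and 16.0% lower, and in the mitotic IP 5 were lower and EIF2AK3 was higher, where 35.8% of all such genes were lower and 27.8% higher. The interaction was negative and called for 5 of the 6, with a median of -1.97, while EIF2AK3 was at 0.40 and not called. Long genes in the whole table leaned the same way: of 1720 genes of that length, 47.7% had a negative and 4.77% a positive interaction call, with a median of -0.45. With trends in transcript length and GC content removed, EIF2AK4, EIF3A, EIF4G1, EIF4G3 and EIF5B kept interactions of -1.50, -1.65, -1.94, -1.72 and -1.60, all called. Across the 53 genes with an annotated coding sequence, Spearman's rho between coding length and the interaction was -0.51 (-0.43 over 12090 genes), a description only, since genes share libraries and base composition.

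**Figure D4:**
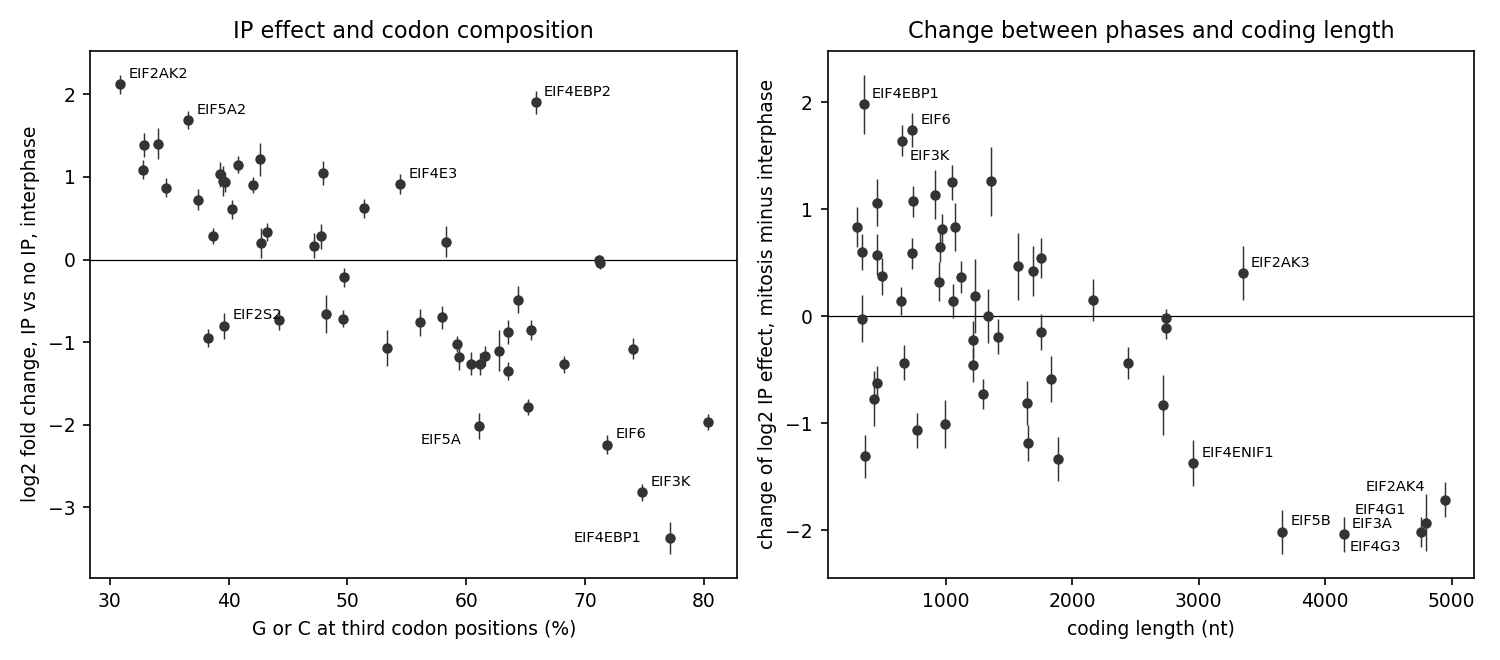
Left, the log2 fold change of the interphase IP against GC3 in percent, and right, the change of the log2 IP effect from interphase to mitosis against coding length in nucleotides; each point is 1 of 53 genes with 1 SE. The points fall from EIF2AK2 at low GC3 to EIF4EBP1 at high GC3 with EIF4EBP2 apart from the rest, and 5 of the 6 genes with 3000 or more coding bases lie between -2.04 and -1.71.

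GC3 went with the direction of the IP effect in interphase. Of the 26 genes with a GC3 under 50%, 17 were higher in the interphase IP and 5 lower, and of the 27 at or above 50%, 3 were higher and 21 lower. The limit of 50% was chosen after the values were seen. Over the whole table the same classes gave 72.0% higher and 8.99% lower, and 19.3% higher and 56.3% lower, so the split belongs to the table as a whole. The exceptions at high GC3 were EIF4EBP2, EIF2AK4 and EIF4E3, which were higher, and at low GC3 EIF1B, EIF2B3, EIF2S2, EIF3M and EIF4H, which were lower. Spearman's rho between GC3 and the effect was -0.73 in interphase (n = 53, against -0.66 over 12090 genes) and -0.49 in mitosis (against -0.54). For transcript length it was 0.60 in interphase (n = 55) and 0.24 in mitosis, against 0.53 and 0.28 over 13120 genes. The part of GC content and length in the IP differences was examined only through the alternative that removes their trends.

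Without IP, 26 of the 55 RNAs differed between the phases. This comparison uses the same libraries without IP as the IP comparisons, so its values stand beside theirs and are not independent of them. In mitosis 11 were higher and 15 lower than in interphase, and 29 were not called, where 51.7% of all genes were called (26.2% higher and 25.5% lower). In bulk RNA, fewer cells with a transcript and less transcript per cell cannot be told apart. EIF5B rose most (1.18, SE 0.15, adjusted p = 0.000303), from 4.79 and 4.36 FPKM to 12.8 and 10.6 FPKM, followed by EIF4ENIF1 (0.80, SE 0.15, adjusted p = 0.00261), EIF5 (0.78, SE 0.10, adjusted p = 0.000401) and EIF3J (0.77, SE 0.12, adjusted p = 0.000786). EIF4E (0.65), EIF2S1 (0.59) and both EIF4G1 (0.67) and EIF4G3 (0.42) were also higher. EIF4B fell most (-1.02, SE 0.15, adjusted p = 0.000759), from 97.9 and 112 FPKM to 47.6 and 54.9 FPKM, followed by EIF3K (-0.80, SE 0.10, adjusted p = 0.000376), EIF2AK4 (-0.77, SE 0.12, adjusted p = 0.000757) and EIF3G (-0.76, SE 0.10, adjusted p = 0.000324). The genes EIF5A (0.02) and EIF4A1 (0.03), among the highest of the set, were not called. Of the 26 calls, 14 held under all 16 alternatives, among them those of EIF5B, EIF4B, EIF3K, EIF2AK4, EIF3G, EIF5, EIF3J, EIF4E and EIF4ENIF1. The count of lower genes was 9 in place of 15 without replicate 1 of mitosis without IP. The call of EIF4G1 was lost without replicate 1 of either group without IP or replicate 2 of interphase without IP, and that of EIF4G3 without replicate 1 of interphase without IP. With length and GC trends removed 22 of the 26 calls remained, and those of EIF4EBP1, EIF4G3, EIF5A2 and EIF6 were lost.

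Several of these genes belong to the class of mRNAs whose first base is a C followed by a run of pyrimidines, the 5′ terminal oligopyrimidine tract through which mTOR and LARP1 control translation. In RefSeq (GRCh38.p14), 44 of the 55 genes had an annotated start sequence, and 9 of them (20.5%) began with a C followed by at least 4 C or T bases on the transcribed strand, against 5.14% of 27305 gene symbols and 7.54% of 9435 protein-coding genes of the table. The first 20 transcribed bases of 6 of the 9 are shown so that the tract, in capitals, can be compared between genes that went opposite ways in the interphase IP: EIF2A (chr3:150546787-150546806, plus strand), EIF4B (chr12:53006456-53006475, plus) and EIF4A2 (chr3:186783577-186783596, plus), which were higher, and EIF3F (chr11:7987337-7987356, plus), EIF3D (chr22:36529147-36529166, minus) and EIF3K (chr19:38619188-38619207, plus), which were lower.
EIF2A: CTCTTTCCgggacaacatgg
EIF4B: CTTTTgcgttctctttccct
EIF4A2: CTTTTCagtcgggcgctgag
EIF3F: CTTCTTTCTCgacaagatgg
EIF3D: CTCTTTTCCTggtttctcaa
EIF3K: CTCTTCCTgttcccgtcctt
The other 3 were EIF2D, EIF2S3 and EIF3M. The match is by letters only and says nothing on use of that start in these cells. Of the 9 genes with a tract, 4 rose and 5 fell in the interphase IP, and of the 35 with a sequence and no tract, 13 were higher and 17 lower. Of all genes, 37.6% were higher and 37.0% lower there. Without IP, none of the 9 was higher in mitosis and 4 were lower (EIF2D, EIF3K, EIF4A2 and EIF4B), with a median of -0.36. Of the 35 without a tract 11 were higher and 5 lower, with a median of 0.07, where 26.2% of all genes were higher and 25.5% lower. The calls of EIF2D and EIF4A2 were lost when single libraries were left out. The difference between these sets was not tested. Of 4 initiation factor genes long known for such a tract (EIF3E, EIF3F, EIF3H and EIF4B), EIF3H and EIF4B were lower in mitosis without IP (-0.51 and -1.02), EIF3E was at -0.47 and EIF3F at -0.27, neither called. EIF3E and EIF3H had no start sequence in the source used, so the count of 9 misses genes known for a tract.

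Other genes of cap-dependent initiation and its control, a list of 25 that were all in the table, also split. In the interphase IP 12 were higher and 7 lower, with a median of 0.20, where 37.6% of all genes were higher and 37.0% lower. In the mitotic IP 11 were higher and 9 lower, with a median of 0.26, where 32.8% of all genes were higher and 31.7% lower. How these calls fare under the alternatives is not reported here. RPS6KB2, a kinase of ribosomal protein S6, was the lowest in interphase (-2.19) while its relative RPS6KB1 was higher (1.48 in interphase and 1.37 in mitosis). DHX29, a helicase for structured leaders, went from 1.08 in the interphase IP to -0.87 in the mitotic IP. EIF3A and EIF5B had the same change of sign, and their interphase calls were lost with length and GC trends removed. For DHX29 the outcome of that step is not reported here. MTOR was not called in the interphase IP (0.01) and was lower in the mitotic IP (-0.86). DDX3X, a helicase that helps long leaders, was higher in both phases (1.25 and 1.5). Without IP, 11 of the 25 were higher and 6 lower in mitosis, where 26.2% of all genes were higher and 25.5% lower. MTOR was at 0.92 and PPP1R15A, a regulatory subunit of the eIF2 alpha phosphatase, at -1.28.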

How the data were processed

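RNA was sequenced from rRNA-depleted, strand-specific libraries, 2 in each of 4 groups, per the labels' protocols. The authors deposited FPKM per gene for the 8 libraries, with hg38 named in the file. TopHat and StringTie are named in the submitters' processing notes, and their settings are not given in the sources used here. The deposited table also gives ratios of FPKM columns (IP over total RNA, mitosis over interphase), which were not used for the tests. A second table, of long noncoding RNAs on hg19, was not used here. There were 0 columns of per-sample values outside the 8 libraries. Fragment counts are not in these values, so no count test was run.

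FPKM were analysed as log2(FPKM + 1) with limma 3.58.1 in R 4.3.3 (1 coefficient per group, all 8 libraries, 4 residual degrees of freedom, empirical Bayes with a mean trend), without a filter on low values. There were 5 comparisons: the IP against no IP in each phase, the difference of these effects, and the mitotic against the interphase groups, once for libraries without IP and once for the IP. Adjustment (Benjamini-Hochberg) was over 13471 genes. The fit was also run on simulated data with independent noise and few changed genes. In the interphase IP 74.6% of all genes were called, so that run does not bear on the calls here. The members are set by a name rule that uses no values, but this set of genes and the gene lists were picked with earlier results of these data known. Values of all 8 libraries are given for the 4 largest calls per direction and comparison whose replicates share a sign, for the highest gene of each role group and for sets of relatives, 42 genes in all.

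Transcript length and GC content came from the longest transcript of a gene in GENCODE release 29 (GRCh38). This was done for 12678 genes matched by symbol and 442 by synonym (97.4%). Coding sequence, coding length and GC3 came from a complete protein-coding transcript, chosen by its APPRIS rank as main form, for 12090 genes. It can be shorter than the longest transcript, as it was for EIF4A2 and EIF4G2. The same held for EIF4A3, EIF4E2, EIF2B4 and EIF2B5, whose interphase calls remained with the trends removed. Trend removal with the length of the coding transcript was not tested. Gene positions are those of the same release. Start sequences came from the RefSeq promoter table. The 16 alternatives were a pseudocount of 0.1, a mean FPKM of at least 1, quantile normalization, median centring, removal of loess trends in length and GC content (span 0.3), a replicate block, that block with the trends removed, limma without the mean trend, and leaving out each of the 8 libraries.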

Additional observations from a re-analysis of the deposited data

Results flagged for a closer look

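The effect of the IP differed between interphase and mitosis, by a test of the difference itself, for 35 of the 55 genes, where 47.1% of all genes passed that test. For 7 of them both phases had a called effect and the directions were opposite. Among all genes 3.73% went from higher to lower in this way and 2.47% from lower to higher. With length and GC trends removed, the interphase call was lost for 6 of the 7, and EIF4G3 kept both calls. The change of the log2 effect from interphase to mitosis was -2.04 for EIF3A, -2.02 for EIF4G3, -2.01 for EIF5B, -1.71 for EIF2AK4 and -1.06 for EIF3J, each higher in the interphase IP and lower in the mitotic IP. It was 1.26 for EIF2B3 and 1.07 for EIF4H, which went from lower to higher. All of these were past the adjusted threshold in limma, and the change for EIF2B3 was lost with the trends removed (0.82). The part of IP yield, library depth and arrest protocol in these differences was not tested.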

How the results depend on the processing

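Removing the trends in length and GC content turned the sign of 14 results, with the same values when the replicate block was added. In the interphase IP these were EIF2S1 (-0.19), EIF4A2 (-0.73), EIF4E (-1.12), EIF4E3 (-0.55) and EIF4EBP3 (0.86). In the mitotic IP they were EIF1AX (-0.13), EIF4E (-0.37), EIF4E3 (-0.39), EIF4EBP3 (0.66), EIF5 (-0.11) and EIF6 (0.11). The change between phases turned for EIF3G (-0.34) and EIF4EBP3 (-0.20), and mitosis against interphase in the IP for EIF4EBP3 (-0.076). The genes higher in the mitotic IP numbered 7 with the trends removed and 8 with the block added, in place of 15. The cause was not tested. Leaving out 1 library put the genes lower in mitosis without IP between 9 and 16, in place of 15. The other counts stayed within 1.5 times their value under all 16 alternatives.

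Replicate numbers are not stated to mark a shared culture or day, and the deviations of same-numbered libraries correlated at 0.088 to 0.53. With the replicate number as a block, every call was kept and the interphase IP had 20 higher and 27 lower genes. In the mitotic IP it was 16 and 28, for the change between phases 18 and 20, for the phases compared without IP 11 and 17, and for the phases compared in the IP 19 and 21. With 2 libraries a group and unknown fragment totals, small differences and genes under 1 FPKM are measured with little precision.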
